A study of Homo sapiens with 8 samples.

Results

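HCT116 is an established line from a human colorectal carcinoma, and its transcriptome before any histone deacetylase (HDAC) was inhibited is described here. It was read from the 2 arrays of cells that received vehicle, chosen by their treatment label out of 8 arrays in all. The other 6 arrays came from HCT116 cells given largazole (20 nM), FK228 (20 nM) or SAHA (2 µM), with 2 arrays for each compound. All cells grew in DMEM with 10% serum, and RNA was taken 10 h after the addition of compound or vehicle. The labels do not say what the vehicle was, and they speak of duplicates without saying whether these were separate cultures. The p-values therefore measure the spread between arrays, which may be technical.

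HDACs take acetyl groups off the lysines of histones and other proteins, mostly as subunits of corepressor complexes. The zinc-dependent enzymes form classes I, IIa, IIb and IV, whereas the sirtuins depend on NAD+. Hydroxamates and depsipeptides such as those of this study act on members of the zinc-dependent family, but not each on every member. Which enzymes were inhibited at these doses was not measured here. The lining of the colon consists of absorptive, goblet, enteroendocrine and stem cells, which carry separate marker genes under gut homeobox factors such as CDX1 and CDX2.

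The deposited values are probe set signals on the log2 scale of an Affymetrix U133 2.0 array. Of 54613 probe sets, 41091 carried exactly 1 gene symbol, and 19775 genes were each represented by 1 probe set, that of highest average signal across the arrays. The vehicle arrays had medians of 4.47 and 4.48, spanned 1.71 to 14.50, and had a Pearson correlation of 0.996 over all probe sets, a description across features that are not independent. A signal depends on the affinity of its probes as well as on the transcript, so the order of signals given below is not an order of transcript numbers. In such bulk RNA, a transcript in fewer cells and less transcript per cell cannot be told apart.

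Background was set from gene families chosen on the assumption that a colon carcinoma line mostly does not transcribe them. This was not tested, and any transcribed members would raise the ceiling. The olfactory receptors, taste receptors and hair keratin-associated proteins contributed 164 probe sets of 135 genes, with a median of 3.19 and a range of 2.05 to 7.23. Their 95th percentile, 4.93, served as the background ceiling. With vehicle, 8012 genes (40.5%) lay at or below it and 11763 (59.5%) above it. Genes above the ceiling were divided into 3 equal bands of 3921, low (up to 7.05), middle (up to 8.88) and high, and the top 1% of all genes (198) began at 12.49. The plot of all signals shows a first mode that overlaps the receptor and keratin-associated genes and a broad second mode above the ceiling. Nearest the ceiling, the transporter SLC22A7, the non-coding LINC02273 and the exchange factor DOCK3 stood at 4.93 just below it. TNS2-AS1, ZDHHC1 and HLA-DRA stood at 4.93 to 4.94 just above it, and 406 genes lay on opposite sides of it on the 2 arrays.

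**Figure D1:**
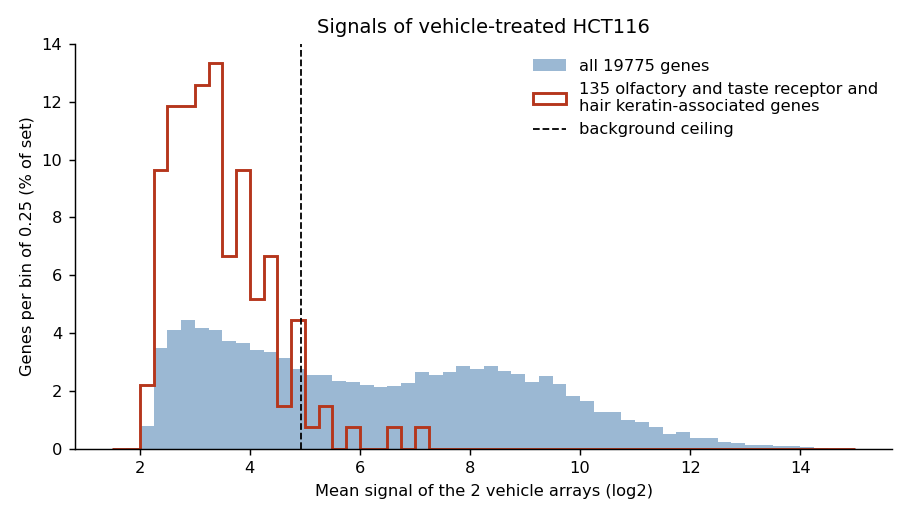
Histogram of the mean log2 signal of the 2 vehicle arrays for 19775 genes (filled, percent of genes per bin) and for 135 olfactory receptor, taste receptor and hair keratin-associated genes (outline, percent of that set). The dashed line is the background ceiling of 4.93, and 59.5% of all genes lie to its right.

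The duplicates were tighter at high signal. The pooled SD between the vehicle arrays was 0.164 for genes near background, 0.147 in the low, 0.112 in the middle and 0.0916 in the high band, and 0.0556 in the top 1%. Above the ceiling, 130 of 11763 genes differed by more than 0.5 between the arrays. The largest difference was that of HFE, an MHC class I-like regulator of iron uptake, at 8.62 on replicate 1 and 7.42 on replicate 2. CDK5R1, an activator of CDK5, read 6.48 and 5.51, and the nuclear receptor HNF4G read 5.71 and 4.82. CSPG4, a surface proteoglycan, went the other way with 5.0 and 5.90. KLF5, a factor of proliferating crypt cells, read 8.33 and 7.52, and the aminopeptidase ENPEP 5.45 and 4.65. Levels of these genes with vehicle are the least certain among genes above the ceiling. The group was completed by ATP2B1-AS1, KLHL28, PHLDA2 and DCDC2B, with differences of -0.86, 0.84, 0.78 and -0.77 (replicate 1 minus replicate 2).

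The highest signals came from the protein synthesis machinery. RPL41, the smallest ribosomal protein, read 14.50 on both arrays, the elongation factor EEF1A1 14.36 and 14.41, and RPL37A, of the large ribosomal subunit, 14.25 and 14.26. Of the 30 highest genes, 21 encoded ribosomal proteins and 3 were on the list of translation factors (EEF1A1, PABPC1 and TPT1). A further 2 were chaperones, 1 a glycolytic enzyme and 1 a cytoskeletal protein. The mitochondrially encoded oxidase subunit COX2 (14.12 and 14.08), the ubiquitin gene UBB (14.07 and 14.04), the glycolytic GAPDH (13.90 and 13.92), the tubulin TUBA1B (13.85 and 13.89) and the mitochondrial chaperone HSPD1 (13.85 and 13.80) stood among the ribosomal genes. The 2 arrays agreed closely at this end, and 29 of the 30 genes remained among the highest 30 on replicate 2 alone and 28 on replicate 1 alone. The choice of probe set mattered more: with a gene taken as the average of its probe sets 12 remained, and without probe sets named _x_at or _s_at, which can match several transcripts, 4.

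Within the top 1%, 50 of 198 genes encoded ribosomal proteins and 14 subunits of oxidative phosphorylation. A further 12 were on the list of translation factors, TPT1 among them. The rest of those listed were 11 chaperones or proteasome subunits, 8 glycolytic enzymes, 6 cytoskeletal proteins and 2 cell division proteins. The other 95 were in none of these lists. Over all 7 housekeeping and proliferation lists, 257 of 261 measured genes lay above the ceiling and 238 in the high band. The median signal was 13.75 for ribosomal proteins, 12.34 for chaperones and proteasome and 10.39 for cell division and replication. The exceptions were RPL36A (3.19), EIF4A2 (2.89), ATP5MF (4.43) and the cyclin CCND2 (3.81). A low value of 1 probe set is not a statement that the gene is silent, since probe sets that carry several symbols were not used.

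The promoters of genes in these bands differed in base composition. RefSeq promoters (GRCh38.p14) were matched for 15384 genes, and the 250 bases before the start were read, in the direction of the gene. A window counted as CpG-rich when its GC content was at least 55% and its observed CG dinucleotides reached 0.65 of the number its C and G content predicts. The 4 sequences below show a gene of highest signal, an HDAC gene, a gene of the testis that was high in HCT116 and an enterocyte gene near background, with each CG in capitals.
RPL41: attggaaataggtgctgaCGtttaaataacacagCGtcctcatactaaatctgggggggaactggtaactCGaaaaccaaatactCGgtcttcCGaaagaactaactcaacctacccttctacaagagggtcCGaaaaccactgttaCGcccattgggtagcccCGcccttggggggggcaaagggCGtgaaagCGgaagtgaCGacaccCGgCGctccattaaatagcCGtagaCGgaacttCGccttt
HDAC1: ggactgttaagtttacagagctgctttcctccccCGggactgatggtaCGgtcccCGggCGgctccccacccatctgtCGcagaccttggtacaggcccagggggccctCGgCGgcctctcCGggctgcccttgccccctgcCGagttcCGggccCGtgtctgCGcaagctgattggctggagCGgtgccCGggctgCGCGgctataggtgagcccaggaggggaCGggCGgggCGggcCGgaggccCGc
MAGEB2: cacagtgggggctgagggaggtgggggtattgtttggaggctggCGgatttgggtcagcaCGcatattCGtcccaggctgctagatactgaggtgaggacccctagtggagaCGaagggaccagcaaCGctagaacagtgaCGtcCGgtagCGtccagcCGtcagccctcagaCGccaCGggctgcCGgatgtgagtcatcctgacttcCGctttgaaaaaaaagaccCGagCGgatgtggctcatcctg
SI: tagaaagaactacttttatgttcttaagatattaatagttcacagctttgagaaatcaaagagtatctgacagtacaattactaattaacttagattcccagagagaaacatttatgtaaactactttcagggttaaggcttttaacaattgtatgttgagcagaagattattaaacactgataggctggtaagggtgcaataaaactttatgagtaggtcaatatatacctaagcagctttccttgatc
They lie at chr12:56116383-56116632 (plus strand), chr1:32291833-32292082 (plus strand), chrX:30215313-30215562 (plus strand) and chr3:165078497-165078746 (minus strand). The window of HDAC1 holds 21 CG at 71.6% GC and that of MAGEB2 15 at 59.2%, and both are CpG-rich. The window of RPL41 holds 16 CG at 51.2% GC, below the GC limit, and that of SI, sucrase-isomaltase of the small intestinal brush border, holds 0 at 31.6%.

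Of the windows of genes near background, 29.4% were CpG-rich, against 56.1% in the low, 72.6% in the middle and 74.5% in the high band, 77.8% in the top 1% and 53.5% of all genes. The letters GGGCGG, on either strand, stood in 35.3% of windows near background, in 62.3%, 70.6% and 68.6% of those in the low, middle and high bands, and in 55.3% of all. The letters CCGGAAG, on either strand, stood in 4.69%, 10.9%, 16.8% and 20.6% of windows from the lowest to the highest band, in 22.8% of the top 1% and in 11.9% of all. The letters TATAAA, on either strand, followed another course: 14.2% near background, 6.14% low, 4.2% middle, 5.25% high and 12.7% in the top 1% (20 of 158 windows), against 8.57% of all. These are counts of letters and not of bound sites, and GC content itself makes the GC-rich motifs more frequent. Among gene lists, 2 of 22 absorptive enterocyte windows were CpG-rich (9.09%), and 23 of 27 windows of HDAC corepressor subunits (85.2%).

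The epithelial identity of the line was strong, while most of the listed markers of mature intestinal cells lay near background. EPCAM, the epithelial adhesion molecule, read 12.74 and 12.42, and the simple-epithelium keratins KRT18, KRT19 and KRT8 read 12.79 and 12.87, 12.10 and 12.15, and 11.91 and 12.04. E-cadherin, CDH1, read 9.41 and 9.40 on 1 of its 2 probe sets, the other lying near background at 3.76. Of 40 junction and polarity genes, 35 lay above the ceiling, with beta-catenin CTNNB1 (12.33) and the desmosomal cadherin DSG2 (11.46) at the top and the tight junction genes CLDN1 (3.95) and CLDN18 (3.97) near background. Of 17 keratins, 7 lay above it.

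Of 31 markers of absorptive enterocytes, 3 lay above the ceiling. These were carbonic anhydrase CA2 (9.49 and 9.67), the apolipoprotein APOA4 (5.39 and 5.71) and the immunoglobulin transporter PIGR (5.02 and 5.0). SI read 2.23 and 2.21, the chloride exchanger SLC26A3 2.38 and 2.59, and the intestinal cadherin CDH17 2.93 and 2.91. Keratin 20 (KRT20, 3.94), galectin 4 (LGALS4, 3.87) and all 4 probe sets of the brush border villin (VIL1, 2.76 to 4.49) also stayed below 4.93. Most of these 31 markers were thus at background level. The list also holds genes of the small intestine, such as SI, so the count is not one of colon markers alone. At a ceiling set at the 90th percentile the count above it was 9 of 31, and at the 99th percentile it was 1, CA2.

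Among regulators of the gut, 17 of 26 lay above the ceiling. SOX9, a crypt factor, read 10.13 and 10.17, KLF4 8.88 and 8.77, the epithelial ETS factors EHF 8.53 and 8.52 and ELF3 8.36 and 8.38, and the vitamin D receptor VDR 8.13 and 8.16. The homeobox genes CDX1 (5.19 and 5.31) and CDX2 (6.02 and 5.69, on 1 of its 2 probe sets) were in the low band, within the range of the receptor and keratin-associated genes that set the background. ATOH1 (3.89) and NEUROG3 (3.76), which direct secretory and endocrine fates, were near background. Of 29 goblet, Paneth and enteroendocrine markers, 7 lay above it, the highest being the mucin MUC1 (6.00 and 6.45), while the gut hormone GCG (2.63) and lysozyme LYZ (2.78) did not.

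Genes of crypt stem cells and Wnt signalling divided. Of 24, 17 lay above the ceiling, with the Wnt effector TCF7L2 at 12.40 and 12.14, the Wnt antagonist DKK1 at 11.79 and 11.65, the hyaluronan receptor CD44 at 11.07 and 10.88, MYC at 10.88 and 10.91 and the feedback inhibitor AXIN2 at 8.62 and 8.19. The stem cell markers LGR5 (3.46 and 3.62) and OLFM4 (2.49 and 2.84) were near background. Genes raised in colon carcinoma or fetal tissue lay above it in 20 of 28 cases and had the highest median of the lineage lists, 9.69. Among them, annexin A2 (ANXA2) read 13.56 and 13.60, S100A6 12.97 and 13.02, and the RNA-binding IGF2BP3 10.33 and 10.41, whereas the carcinoembryonic relative CEACAM6 (3.69) and trefoil factor TFF1 (3.46) were near background. CEACAM5 read 5.44 on 1 of 2 probe sets.

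Markers of other tissues were near background in 264 of 352 cases, and 88 (25%) lay above the ceiling, against 59.5% of all genes. Their median was 4.05, compared with 5.89 over all genes. Of the background families themselves, 9 of 135 genes (6.67%) lay above. The ceiling was set at a high percentile of these same families, so a small share above it follows from its definition. That share is therefore not an observed contrast with the markers or with all genes. Of markers with 1 probe set 30 of 178 lay above (16.9%), and of those with 2 or more 58 of 174 (33.3%). Over all genes the shares were 43.1% and 73.9%, and among enterocyte markers 2 of 16 and 1 of 15. At a ceiling of 6.25, the 99th percentile, 33 of the 352 remained. The strip plot of lists shows that most of the 88 stand just right of the ceiling.

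**Figure D2:**
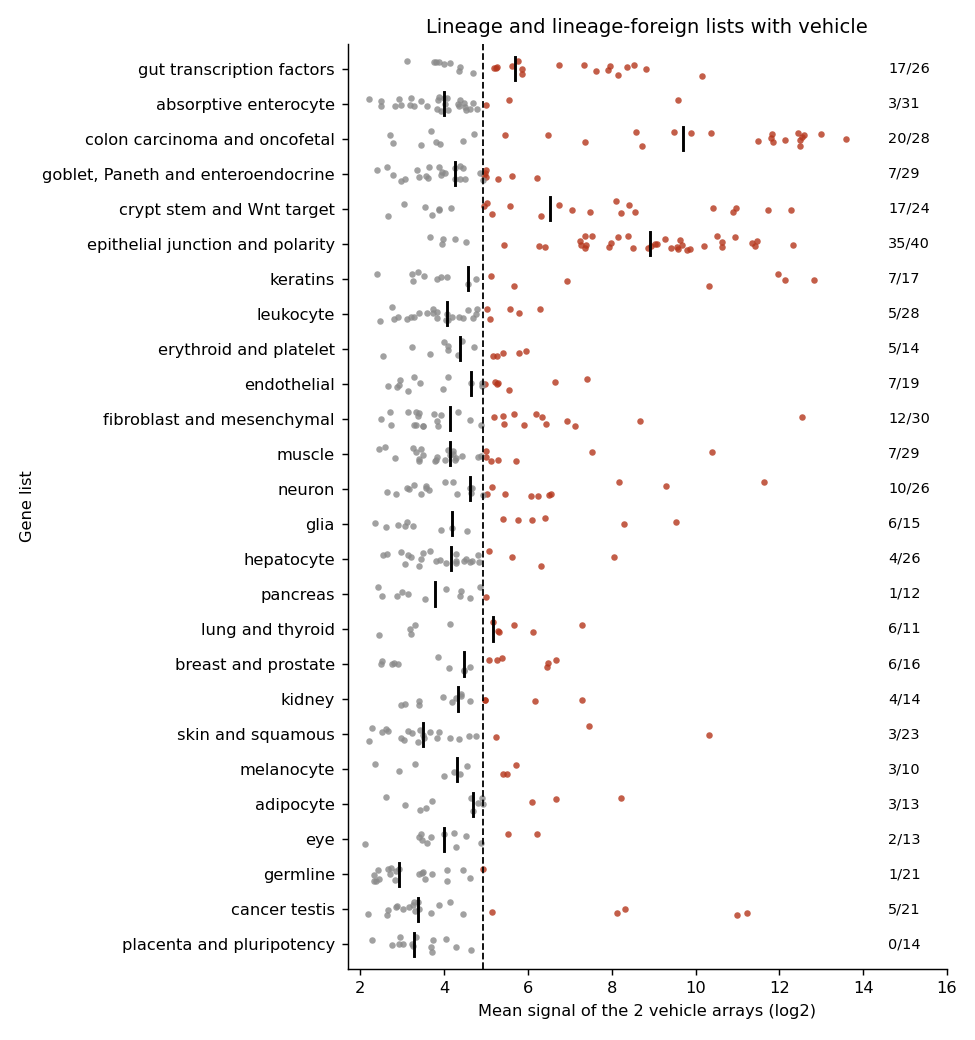
Each point is the mean log2 signal of 1 gene on the 2 vehicle arrays, by gene list, red above and grey at or below the background ceiling of 4.93 (dashed line). Black bars are list medians, and the numbers at the right give genes above the ceiling of genes measured, such as 3 of 31 for absorptive enterocyte markers and 35 of 40 for epithelial junctions.

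A few markers of other tissues stood far above it. Whether normal colon also expresses a listed gene, such as PPARG or CPS1 below, was not examined here. S100A4, a calcium-binding protein used as a fibroblast marker, read 12.51 and 12.57, and also belongs to the list of carcinoma genes. The neuronal tubulin TUBB3 read 11.56 and 11.70, with its other probe set at 11.47. Slow skeletal troponin T, TNNT1, read 10.32 and 10.47, and keratin 10, KRT10, of the upper epidermis, 10.32 and 10.30. The myelin enzyme CNP read 9.54 and 9.53 and the synaptic calcium sensor SYT1 9.31 and 9.29. Both arrays gave these genes at nearly the same level, which does not address whether their probes are specific. All probe sets of S100A4, TUBB3, TNNT1 and KRT10 are named _x_at or _s_at, as is the higher probe set of CNP. Collagen COL6A1 (8.69 and 8.65), myelin basic protein MBP (8.24 and 8.34), PPARG, the regulator of fat cells (8.15 and 8.28), the glycolytic enolase ENO2 of neurons (8.17 and 8.20) and the urea cycle enzyme CPS1 (8.16 and 7.96) followed, with cardiac troponin TNNI3 at 7.48 and 7.57. For MBP 3 of 9 probe sets lay above the ceiling, for COL6A1 4 of 8, and for CNP 1 of 2, the other at 4.75.

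Of 21 cancer testis genes, which adult somatic tissues mostly lack, 5 lay above the ceiling. MAGEB2 read 11.15 and 11.32, MAGEA6 averaged 10.99, PRAME read 8.26 and 8.36, MAGEA12 8.05 and 8.20, and MAGEA1 5.18 and 5.11. MAGEA4 (2.66) and MAGEA11 (2.20), of the same family, were near background, as was BRDT (2.86). The MAGEA genes are near-identical copies whose probes can cross-react, so which member gave a signal is uncertain. Of 21 germline genes 1 lay above, the protamine PRM1 at 4.94, and of 14 placenta and pluripotency genes 0.

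Markers of other cell types that a culture could hold were also read. Of 28 leukocyte genes 5 lay above the ceiling, the highest being IKZF1 at 6.30, and the pan-leukocyte PTPRC read 2.48 and 2.47 on the highest of 5 probe sets. Of 19 endothelial genes 7 lay above, led by EGFL7 (7.41), while the receptor KDR (2.96) and TIE1 (2.87) were near background. Of 30 fibroblast and mesenchymal genes 12 lay above. Besides S100A4 and COL6A1 these included COL1A1 (7.25 and 7.0), fibronectin FN1 (7.02 and 6.86), vimentin VIM (6.18 and 6.20 on 1 of 2 probe sets, the other at 2.40) and the repressor ZEB1 (5.61 and 5.71), whereas LUM (2.74), POSTN (2.50) and PDGFRA (3.15) were near background. For COL1A1 4 of 5 probe sets lay above the ceiling, and for FN1 4 of 7. Without probe sets named _x_at or _s_at, FN1 read 2.77. Of 26 neuronal genes 10 lay above, of 26 hepatocyte genes 4, of 29 muscle genes 7 and of 14 erythroid and platelet genes 5.

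HBE1, embryonic beta-type globin, was in none of the lists and was picked out after its values were seen. It read 10.68 and 10.81 on 1 probe set, while its other probe set averaged 2.84. The next genes on one side of it in RefSeq are olfactory receptors, of which OR51B4 read 7.20 and 7.26, the highest of the 135 genes that set the background. OR51B2 (5.36 and 5.40) and OR51B5 (5.16 and 5.42) also lay above the ceiling, and OR51B6 (3.11 and 2.94) did not. On the other side, delta globin HBD averaged 4.09 and beta globin HBB 5.79.

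Receptors were above the ceiling in 173 of 280 cases, and the strip plot of receptor families shows wide spreads within each family. Of 54 receptor tyrosine kinases, 32 lay above, with the hepatocyte growth factor receptor MET at 11.63 and 11.46 and the Wnt-binding RYK at 10.18 and 9.99. ERBB3 (8.77 and 8.87), ERBB2 (8.55 and 8.61), the insulin receptor INSR (8.47 and 8.57) and EGFR (6.98 and 6.99) followed. For EGFR 3 of 9 probe sets lay above and for ERBB2 1 of 3. Near background were ERBB4 (3.63), the stem cell factor receptor KIT (3.39) and KDR. The KIT ligand, KITLG, was in the top 1%, at 12.85 and 12.82, but averaged 7.17 over all its probe sets.

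**Figure D3:**
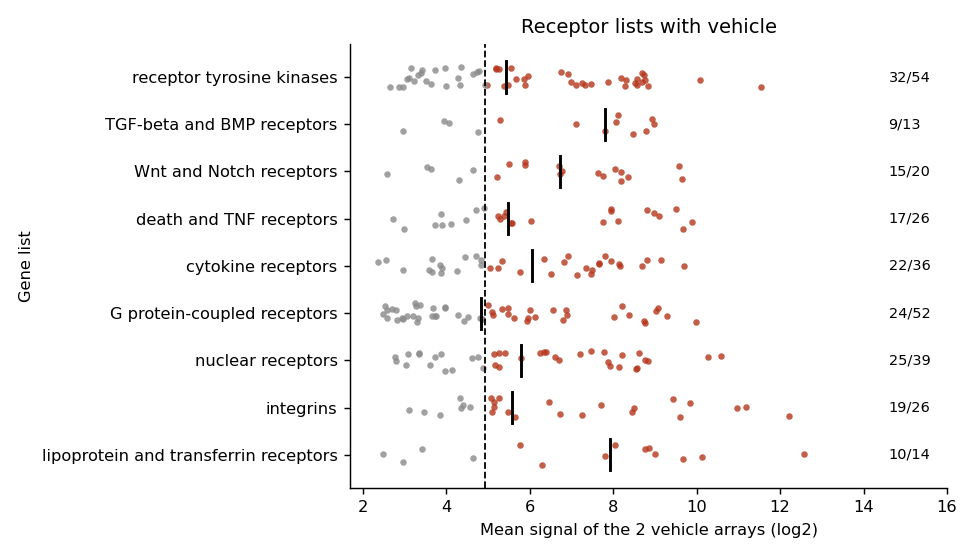
Mean log2 signal on the 2 vehicle arrays for each gene of 9 receptor lists, red above and grey at or below the background ceiling of 4.93 (dashed line). Black bars are medians, from 4.84 for G protein-coupled receptors to 7.91 for lipoprotein and transferrin receptors.

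Of 13 TGF-beta and BMP receptors 9 lay above, led by TGFBR2 (9.0 and 8.95) and TGFBR1 (9.02 and 8.84). Of 20 Wnt and Notch receptors 15 did, led by FZD6 (9.69 and 9.60) and NOTCH2 (9.59 and 9.58), with FZD10 lowest at 2.59. The TRAIL receptor TNFRSF10B (9.85 and 9.92) was highest of 26 death and TNF receptors, 17 of which lay above, and the decoy TNFRSF11B lowest at 2.72. Of 36 cytokine receptors 22 lay above, led by the shared IL-6 family subunit IL6ST (9.78 and 9.63), and the growth hormone receptor GHR was lowest at 2.37. G protein-coupled receptors had the smallest share, 24 of 52, led by the adenosine receptor ADORA2B (9.91 and 10.05). Of 39 nuclear receptors 25 lay above, with NR2F6 (10.55 and 10.60) and NR2F1 (10.41 and 10.12) highest and the progesterone receptor PGR at 2.80. Integrin beta 1, ITGB1 (12.28 and 12.14), led 26 integrins and adhesion receptors, of which 19 lay above, and the transferrin receptor TFRC (12.66 and 12.50) led 14 uptake receptors, of which 10 did.

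The genes of the zinc-dependent HDACs were present at very different signals. All 11 zinc-dependent HDAC genes lay above the ceiling. In class I, HDAC1 read 11.89 and 11.97, HDAC2 11.16 and 11.02, HDAC3 9.18 and 9.34 and HDAC8 7.28 and 7.26. In class IIa, which shuttles between nucleus and cytoplasm, HDAC4 read 7.65 and 7.62, HDAC5 7.22 and 7.41, HDAC7 5.96 on both arrays, and HDAC9 5.55 and 5.04. The tubulin deacetylase HDAC6 read 7.63 and 7.48, the polyamine deacetylase HDAC10 5.39 and 5.19, and HDAC11, of class IV, 6.65 and 6.67. HDAC9 and HDAC10 came closest to the ceiling. For HDAC9 1 of 5 probe sets lay above it and for HDAC7 1 of 2, the other at 2.95, and at the 99th percentile 8 of the 11 genes remained above. Of 7 sirtuins 6 lay above, from SIRT2 (6.54) to SIRT7 (9.06), and the mitochondrial SIRT4 (4.45 and 4.44) lay below.

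The partners of the HDACs were similarly broad. Of 29 corepressor subunits 28 lay above, with SAP18 (12.12 and 12.28), the histone chaperones RBBP4 (11.41 and 11.19) and RBBP7 (11.27 and 11.22) and the adaptor TBL1XR1 (11.23 and 11.17) highest and ZNF541 (4.40) below. Of 28 acetyltransferases and bromodomain proteins 27 lay above, with HAT1 at 11.06 and 11.05, BRD2 at 10.34 and 10.43 and EP300 at 6.93 and 6.55. All 16 DNA methylation and Polycomb genes measured did so, led by UHRF1 (11.35 and 11.27) and the maintenance methyltransferase DNMT1 (11.04 and 11.05). Of 20 CDK inhibitor and p53 pathway genes 19 did, with CDKN1A at 9.82 and 9.86, and of 20 ERK output genes 20, with the phosphatase DUSP6 at 11.40 and 11.14. Of 6 mismatch repair genes measured 5 did: MSH6 read 10.03 and 10.04, PMS1 9.31 and 9.23, EXO1 8.38 and 8.33, MLH3 6.36 and 6.35 and MSH3 5.69 and 5.48, while the meiotic MSH4 (3.09 and 2.54) was below. The counts cover the measured members of each list.

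Each compound was then compared with vehicle over all 19775 genes with limma, and a gene was called at a p, adjusted over all 54613 probe sets, under 0.05. Largazole changed 5143 genes (26.0%), SAHA 5560 (28.1%) and FK228 6451 (32.6%). The 3 comparisons share the vehicle arrays, so their values are given side by side and not set against each other. Of the 11 zinc-dependent HDAC genes, 3 rose and 1 fell with largazole, 1 rose and 2 fell with SAHA, and 3 rose and 2 fell with FK228. HDAC3 read 9.68 and 9.84 with largazole, 9.89 and 10.01 with SAHA and 10.04 and 9.93 with FK228, all above its vehicle values, and rose by 0.50 ± 0.11 (SE), 0.69 ± 0.11 and 0.72 ± 0.11 (adjusted p = 0.0144, 0.00235 and 0.00146). HDAC4 fell by 0.48, 0.41 and 0.37 (adjusted p = 0.00816, 0.0159 and 0.0223), with each treated array between 7.11 and 7.31. HDAC11 rose by 0.41 with largazole and 0.70 with FK228 (adjusted p = 0.048 and 0.00277), and differed by 0.36 with SAHA (adjusted p = 0.0758). HDAC5 rose by 0.41 and 0.44 with largazole and FK228 (adjusted p = 0.0318 and 0.0169) and differed by 0.32 with SAHA (adjusted p = 0.0738).

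**Figure D4:**
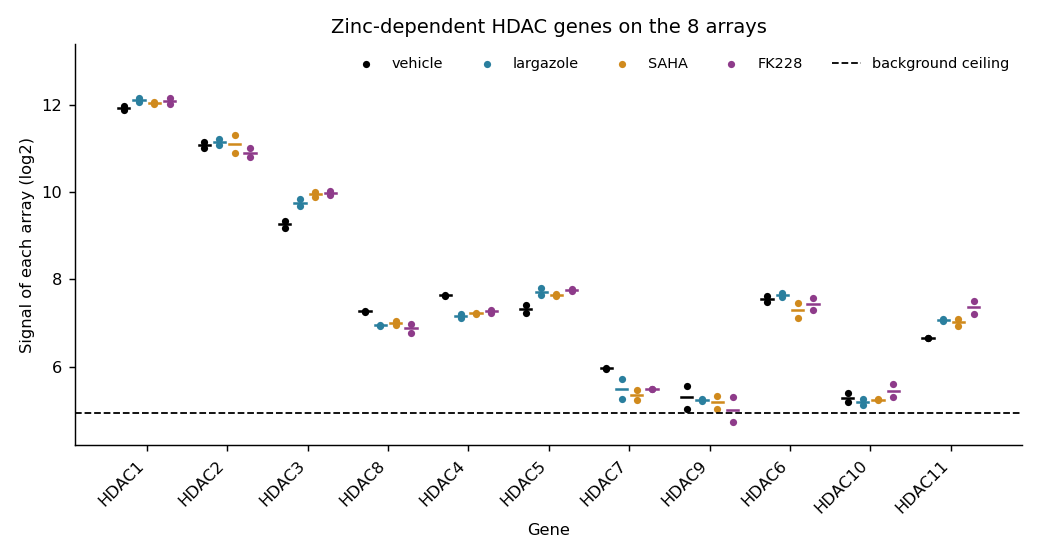
Log2 signal of each array (points) and the mean of the 2 arrays of a group (short lines) for the 11 zinc-dependent HDAC genes, coloured by group, with the background ceiling of 4.93 dashed. HDAC1, HDAC3, HDAC5 and HDAC11 lie higher on all 6 treated arrays than on both vehicle arrays, HDAC4, HDAC7 and HDAC8 lie lower on all 6, and treated and vehicle arrays overlap at HDAC2, HDAC6, HDAC9 and HDAC10.

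HDAC7 fell by 0.61 with SAHA (adjusted p = 0.0209) and HDAC8 fell by 0.39 with FK228 (adjusted p = 0.0258). HDAC1 and HDAC2, of highest signal in the family, were not called. HDAC1 lay between 12.02 and 12.16 on the treated arrays, above both vehicle arrays, and differed by 0.18, 0.12 and 0.16 with largazole, SAHA and FK228 (adjusted p = 0.305, 0.502 and 0.333). With an intensity trend and robust prior in limma, HDAC1 was called with largazole (adjusted p = 0.0354). HDAC2 differed by 0.06, 0.02 and -0.18. HDAC6, HDAC9 and HDAC10 were also not called with any compound. Several of these calls ended when 1 array was left out. Such fits leave 1 array in a group and called fewer of all genes as well. A lost call is therefore not by itself a sign that it rested on that array. Without vehicle replicate 1, the calls of HDAC4 with each compound (adjusted p = 0.0515, 0.0819 and 0.104), of HDAC5 with largazole and FK228 (0.188 and 0.122), of HDAC3 and HDAC11 with largazole (0.101 and 0.163), of HDAC7 with SAHA (0.0872) and of HDAC8 with FK228 (0.108) ended. Without vehicle replicate 2, those of HDAC4 with SAHA and FK228 (0.0647 and 0.0765), of HDAC11 with largazole (0.156), of HDAC7 with SAHA (0.0919) and of HDAC8 with FK228 (0.0916) ended. Without largazole replicate 1 the calls of HDAC4, HDAC5 and HDAC11 with largazole ended (0.0721, 0.0692 and 0.148), and without largazole replicate 2 those of HDAC3, HDAC5 and HDAC11 (0.117, 0.205 and 0.199). HDAC4 with SAHA lost its call without SAHA replicate 1 or 2 (0.0723 and 0.0567) and HDAC7 without SAHA replicate 2 (0.133). With FK228, HDAC4 and HDAC8 lost theirs without FK228 replicate 1 (0.103 and 0.143) and HDAC5 without FK228 replicate 2 (0.0748). HDAC11 with largazole also lost its call without either SAHA array (0.058), which enters through the shared estimate of spread. HDAC3 with SAHA and FK228 and HDAC11 with FK228 kept their calls with any array left out. Among sirtuins, SIRT4 rose from near background by 1.94, 1.98 and 2.61 (limma adjusted p = 3.78e-05, 3.06e-05 and 4.28e-06). Its probe set, 1 of 2, was chosen with the treated arrays included, and the other is not reported here. SIRT7 rose by 0.71, 0.73 and 1.04, and SIRT5 fell by 0.85, 0.78 and 0.78.

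The share of genes called depended on the signal they had with vehicle. Near background, 365 of 8012 genes (4.56%) rose and 113 (1.41%) fell with largazole, against 12.7% and 13.3% of all genes. With SAHA 343 (4.28%) rose and 154 (1.92%) fell, against 13.1% and 15.0%, and with FK228 499 (6.23%) rose and 177 (2.21%) fell, against 15.8% and 16.8%. In the middle band the shares were 21.0% higher and 26.6% lower with largazole, 22.2% and 29.5% with SAHA, and 25.8% and 32.3% with FK228. In the top 1% they dropped again, to 4 higher and 10 lower of 198 with largazole, 6 and 16 with SAHA, and 5 and 15 with FK228. The bands and the changes use the same vehicle arrays, and a gene at the floor of the array has little room to fall. The next counts come from fits with 1 vehicle array, which called fewer of all genes as well. A lower count there therefore does not measure the effect of sharing the arrays. With the band set on replicate 1 of vehicle and the change on replicate 2, and the reverse, the rises near background numbered 282 and 268 with largazole, 255 and 236 with SAHA, and 343 and 337 with FK228.

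**Figure D5:**
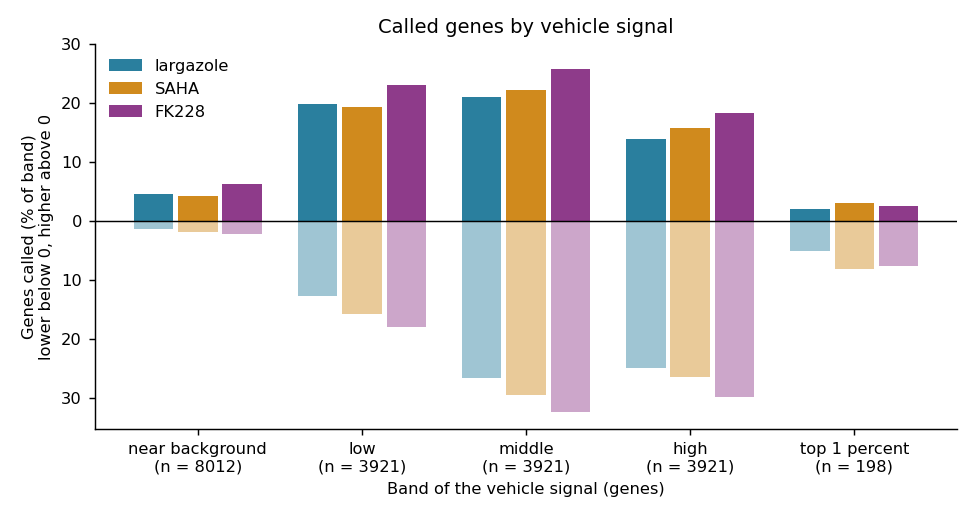
Percent of genes called higher (above 0) and lower (below 0, paler) with each compound against vehicle, by band of the vehicle signal, with limma at an adjusted p under 0.05. The bars are lowest near background and in the top 1% and reach 32.3% lower in the middle band with FK228.

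Of the genes that rose from near background, 186 exceeded the ceiling on both arrays with largazole, 150 with SAHA and 201 with FK228. In the other direction, 130, 167 and 209 genes above the ceiling with vehicle were called lower and lay at or below it on both treated arrays. Counting all genes, 7923 lay at or below the ceiling with largazole, 8030 with SAHA and 7939 with FK228, beside 8012 with vehicle. NEDD9, a focal adhesion scaffold, read 2.47 and 2.14 with vehicle and 6.63 and 6.22 with largazole. SNAI2, the repressor Slug, read 3.65 and 3.10 with vehicle and 7.38 and 7.29 with largazole. SYT11, a vesicle protein, read 3.35 and 3.10 with vehicle and 8.10 and 8.19 with FK228, and IGFBP3, a binder of insulin-like growth factors, 3.58 and 3.14 with vehicle and 7.21 and 7.33 with FK228. The groups were far apart for each of these genes on the probe sets shown. ENPP2, which makes lysophosphatidic acid, read 2.72 and 2.44 with vehicle, the TNF receptor relative TNFRSF19 3.81 and 3.97, CYRIA, an inhibitor of Rac-driven actin assembly, 3.81 and 4.09, and PMEPA1, which dampens TGF-beta signalling, 4.25 and 3.78.

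These probe sets were chosen by their average over all arrays, the treated ones included, so signals on the treated arrays took part in choosing them. The probe set with the highest vehicle mean was an alternative chosen after seeing the data. Of the 8, only SNAI2 kept its probe set. Its level was 3.38 also as the mean of all its probe sets, as for a gene with 1 probe set. SNAI2 therefore could not change, and keeping its probe set says nothing about its rise. NEDD9 then read 4.10 and 4.38 with vehicle and differed by 1.04, 0.94 and 1.21 with largazole, SAHA and FK228 (limma adjusted p = 0.00132, 0.00194 and 0.000352), and ENPP2 read 3.12 and 2.96 and differed by 1.86, 1.71 and 2.31 (adjusted p = 2.59e-05, 3.35e-05 and 4.13e-06). IGFBP3 (4.97), PMEPA1 (5.03) and TNFRSF19 (5.11) lay above the ceiling with vehicle on that probe set and so were no rises from near background. TNFRSF19 was not called there with any compound (adjusted p = 0.903, 0.902 and 0.146), PMEPA1 was called with FK228 alone (0.0664, 0.258 and 0.00763), and SYT11 with largazole alone (0.0202, 0.973 and 0.449). CYRIA differed by 1.03, 0.69 and 0.79 (0.0076, 0.0463 and 0.0224). Which genes rose from near background, and by how much, differed with the probe set that stood for the gene. Over all genes, the called rises from near background numbered 333, 310 and 460 of 7994 with probe sets chosen on vehicle.

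None of the 30 genes of highest signal was called with largazole, SAHA or FK228 (0 of 30 in each comparison). Of all genes, 26.0%, 28.1% and 32.6% were called. Within the top 1%, KITLG fell furthest, from 12.85 and 12.82 with vehicle to 11.31 and 11.21 with largazole, 11.14 and 11.10 with SAHA and 10.26 and 10.06 with FK228. These are differences of -1.58 ± 0.11 (SE), -1.72 ± 0.11 and -2.68 ± 0.11 (adjusted p = 2.56e-05, 1.52e-05 and 9.86e-07). CPOX, a haem synthesis enzyme, fell, with differences of -1.05, -1.12 and -1.82. The histone chaperone ANP32B fell by 0.98, 1.04 and 0.92, thymidylate synthase TYMS by 0.73, 0.86 and 0.65, and the amino acid transporter SLC38A2 by 0.56, 0.71 and 1.53. The largazole call of SLC38A2 ended without vehicle replicate 1 or largazole replicate 2 (adjusted p = 0.0681 and 0.0713), and the FK228 call of MT1F, given below, without vehicle replicate 2, FK228 replicate 1 or FK228 replicate 2 (0.0902, 0.0531 and 0.0631). HMGB2, a DNA-bending chromatin protein, fell by 1.02 with FK228 and the phosphatase PDP1 by 1.32. Averaged over all their probe sets, KITLG, HMGB2 and TYMS read 7.17, 8.59 and 9.20 with vehicle, against 12.84, 12.86 and 12.67 as reported. CPOX (12.63), SLC38A2 (12.47), PDP1 (12.30) and ANP32B (12.18) stayed closer to their reported levels. The falls given are those of 1 probe set for each gene. The rises were smaller. Galectin 1, LGALS1, rose by 0.70, 0.71 and 0.59, ornithine decarboxylase ODC1 by 0.54, 0.65 and 0.74, and the metallothioneins MT1X by 0.50, 0.61 and 0.45 and MT1F by 0.50, 0.63 and 0.39. MT2A rose by 0.38 with SAHA and the elongation factor EEF1D by 0.31 with FK228 (adjusted p = 0.0296 and 0.0488). Both of these last calls also ended with other arrays left out, and among them with either vehicle array (adjusted p = 0.138 and 0.085 for MT2A, 0.194 and 0.113 for EEF1D, without replicate 1 and replicate 2).

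Of 352 markers of other tissues, 25 rose and 7 fell with largazole, against 12.7% and 13.3% of all genes. With SAHA 21 rose and 10 fell, against 13.1% and 15.0%, and with FK228 35 rose and 12 fell, against 15.8% and 16.8%. Their median differences were 0.05, 0.02 and 0.07, beside 0.00, -0.01 and 0.02 over all genes. Markers already above the ceiling that rose included the actin regulator CORO1A (5.80 with vehicle; 2.65, 2.08 and 2.83), the microtubule protein MAP2 (6.50; 2.58, 2.51 and 2.31), MITF, the melanocyte regulator (5.73; 1.13, 1.5 and 1.39), FN1 (6.94; 1.4, 1.2 and 0.96), ZEB1 (1.12, 0.87 and 0.99) and TUBB3 (0.73, 0.74 and 1.08). Others above the ceiling fell. MBP fell by 0.88, 0.99 and 1.24, and PPARG by 1.06, 0.98 and 0.86. NOS3 (6.65 with vehicle) fell by 1.16, 0.82 and 0.78, and TNNT1 by 0.47, 0.60 and 0.41. HBE1 rose by 0.49 with largazole and 0.51 with FK228 and differed by 0.29 with SAHA (adjusted p = 0.0168, 0.0107 and 0.118), and these calls ended without vehicle replicate 1 (adjusted p = 0.107 and 0.0774). The largazole call also ended without largazole replicate 1 or 2 (0.0611 and 0.113) and the FK228 call without FK228 replicate 2 (0.0715). Of 31 enterocyte markers 1 rose with each compound, CA2, by 0.98, 0.79 and 0.88, and 0 fell. Of 194 lineage genes 29 rose and 22 fell with largazole, 22 and 32 with SAHA, and 26 and 35 with FK228, beside the same shares of all genes as for the markers of other tissues. EHF fell by 3.59, 4.08 and 4.74, CD44 by 1.4, 1.32 and 1.58 and TCF7L2 by 0.55, 0.89 and 1.79, while DKK1 rose by 1.43, 1.29 and 0.91 and CDH1 by 0.74, 0.78 and 0.69. The TCF7L2 call with largazole ended without vehicle replicate 1, largazole replicate 1 or largazole replicate 2 (adjusted p = 0.0855, 0.0534 and 0.0759). KRT18 differed by 0.01 with largazole and 0.06 with SAHA and was called with none of the compounds.

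Of the 29 receptors in the high band, 4 rose and 15 fell with largazole, 5 and 17 with SAHA, and 4 and 18 with FK228. Of all genes in that band, 14.0% rose and 24.9% fell with largazole, 15.8% and 26.5% with SAHA, and 18.3% and 29.8% with FK228. Of all 280 receptors, 48 rose and 57 fell with largazole, 44 and 64 with SAHA, and 53 and 66 with FK228, beside the shares of all genes of 12.7% and 13.3%, 13.1% and 15.0%, and 15.8% and 16.8%. MET fell by 1.34, 1.35 and 1.61, TGFBR2 by 1.05, 1.4 and 2.54, FZD6 by 1.24, 1.28 and 1.58, ADORA2B by 1.43, 1.78 and 2.14 and NR2F1 by 1.99, 2.45 and 3.51. TNFRSF10B rose by 0.89, 0.80 and 0.87. ITGB1, which differed by 0.22 with largazole and 0.24 with SAHA, was not called with any compound, and neither was TFRC (0.17, 0.21 and 0.16). Of 28 acetyltransferases and bromodomain proteins 14, 15 and 15 fell with largazole, SAHA and FK228, against 13.3%, 15.0% and 16.8% of all genes, and 1, 1 and 2 rose.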

How the data were processed

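RNA of HCT116 cells was hybridised to 8 Affymetrix arrays. The authors deposited log2 signals of 54613 probe sets, and affy, RMA and limma appear in the submitters' processing notes without role or order; the versions are not given in the sources used here. Probe sets with several symbols (1801) or none (11721) were left out, and each gene was read from 1 probe set, that of highest average signal across the arrays. Symbols came from the platform annotation, updated by gene ID for 41037 of 41091 probe sets.

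Compounds were compared with vehicle in 1 limma fit (R 4.3.3, limma 3.58.1) over all 54613 probe sets and 8 arrays, with no filter. P-values were adjusted by Benjamini-Hochberg over all probe sets, and genes called were those whose probe set passed. The fit was tested on simulated data. The residual degrees of freedom were 4, and the median 95% half-width of a difference was 0.29. An exact permutation test of 2 against 2 arrays cannot go below p = 0.333 and was not used. Tables and figures used Python 3.11.15, pandas 2.3.3 and matplotlib 3.10.9.

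Genes named were the 30 highest signals, up to 4 highest and 4 lowest of each of 52 lists, every marker of another tissue above the ceiling (summarised beyond the highest), all HDAC and mismatch repair genes, the 10 largest differences between the vehicle arrays, the 5 largest rises from background and up to 5 changes each way in the top 1% per compound, and the 3 genes on each side of the ceiling. Other members named in a list, and HBE1 with its neighbours, were chosen after their values were seen. The members and lists were chosen with earlier results of these data known. Members of a list that were not measured are not analysed here. Alternatives were the ceiling, the probe set choice, normalization, filter, prior, replicate block and leaving out each array.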

Additional observations from a re-analysis of the deposited data

How the results depend on the processing

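The count of genes near background ranged from 6913 to 10518 over the alternatives and stayed within 1.5 times of 8012, as did receptors above the ceiling (120 to 194) and HDAC genes (8 to 11). Enterocyte markers above the ceiling numbered 9 at the 90th and 1 at the 99th percentile, and 8 with the median of all values as ceiling. Markers of other tissues above it numbered 33 at the 99th percentile, 54 with the mean of all probe sets, and 55 of 288 without probe sets named _x_at or _s_at. Of the 30 highest signals, 12 and 4 remained under the last 2 of these. These counts depend on where background is set and which probe sets stand for a gene.

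Counts of called genes stayed within 1.5 times under every alternative, and no named gene reversed. With 1 array left out, largazole gave 1676 to 2510 higher and 1754 to 2627 lower, SAHA 1796 to 2575 and 2131 to 2954, and FK228 2392 to 3072 and 2534 to 3271. The lone array of a group was then assumed to vary like the others. Rises from near background under each fit, an alternative chosen after seeing the data, numbered 253 to 421 with largazole, 234 to 399 with SAHA and 339 to 675 with FK228.

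With the replicate block, largazole gave 2752 higher and 2845 lower, SAHA 2822 and 3171, and FK228 3350 and 3507. Under the block HDAC11 lost its largazole call (adjusted p = 0.0564), HDAC7 gained calls with largazole and FK228 (0.0471 and 0.0375) and HDAC5 one with SAHA (0.0425). Differences between replicates 1 and 2 correlated at 0.0792 to 0.169 between groups, and 2 shared numbers do not establish a pairing.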
